A study of Brassica juncea with 2 samples.

Results

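Proline synthesis and transport unigenes of Indian mustard (Brassica juncea var. CS52, a salt-tolerant variety) were followed in 2 RNA-seq libraries. The members are 11 of the 47513 assembled unigenes, taken by words in the deposited annotation that name pyrroline-5-carboxylate enzymes, ornithine-delta-aminotransferase, proline oxidase or dehydrogenase, and proline transporters. The salinity library (SS) came from seedlings given 200 mM salt for 24 h, and the control library (CTRL) from seedlings of the same age, 2 weeks, kept in water. Each library pooled tissue of about 10 seedlings grown in hydroponics, and the labels name no organ. In such bulk samples fewer cells of a type cannot be told apart from less RNA per cell. With 1 library per condition, the RNA-seq ratios could not be checked on replicates, and no test across samples was made. Every interval is a 95% interval that covers counting error only.

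In plants, proline is made mainly from glutamate. Delta1-pyrroline-5-carboxylate synthase (P5CS) turns glutamate into pyrroline-5-carboxylate, and P5C reductase (P5CR) turns that into proline. Ornithine-delta-aminotransferase (OAT) forms the same intermediate from ornithine. Proline oxidase, also called proline dehydrogenase, and P5C dehydrogenase return proline to glutamate in mitochondria. Proline transporters (ProT) carry proline and other compatible solutes across membranes. Proline is a compatible solute that many plants accumulate under salt or drought, and in Arabidopsis the P5CS1 gene responds to salt and abscisic acid while P5CS2 serves dividing tissue.

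The words matched 3 P5CS, 1 P5CR, 1 OAT and 6 ProT unigenes, and 0 unigenes for proline oxidase or proline dehydrogenase. The proline breakdown enzymes therefore had no member, and unigenes outside the words were looked up for them. All 11 members belong to the series of unigenes with a B. rapa match, and 18286 of the 47513 unigenes carry no annotation, so further copies may be among these. Levels are given as RPKM, in which reads are scaled by the unigene's own length in kilobases and by the size of the library, and 1 read on 1000 bp is worth 0.0111 RPKM in SS and 0.0105 RPKM in CTRL. The reads on unigenes total 73982305 in SS and 77863765 in CTRL. Log2 ratios are of SS to CTRL after adding 0.1 RPKM to each value, and ratios printed without log2 carry no added value.

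The main P5CS1 unigene, Bju_CS52_R_29221, had the highest level of all members in both libraries. It is 2622 bp long, matches the B. rapa gene Bra005012 and is the unigene to which the study's P5CS1 primers belong. These primers are shown because they fix which of the P5CS unigenes the gene name stands for, and no letters are singled out by capitals:
P5CS1 forward: gaagtggttttgatttaggctttagg
P5CS1 reverse: ccaagtggtaaacagaacaatgga

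Bju_CS52_R_29221 had 33495 reads (142.3 RPKM) in SS, against 17872 reads (71.9 RPKM) in CTRL. The level was higher in SS, with a ratio of 1.98 (1.94 to 2.02) and a log2 ratio of 0.98. Only 1.97% of the 43250 unigenes compared had a higher log2 ratio. Its lower limit of 1.94 lies above the upper limits of the other 10 members, which reach at most 1.70. A second unigene with the same annotation and the same B. rapa match, Bju_CS52_R_25293 (1654 bp), had 3262 reads (22.0 RPKM) in SS, against 2908 reads (18.5 RPKM) in CTRL. Its ratio was 1.18 (1.13 to 1.25), also above 1 but much smaller.

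The P5CS1 unigenes differed in their ratios beyond counting error. The SS to CTRL ratio of Bju_CS52_R_29221 was 1.67 times that of Bju_CS52_R_25293, with an exact conditional interval from 1.58 to 1.76. In level, Bju_CS52_R_29221 stood 6.48 times above Bju_CS52_R_25293 in SS and 3.88 times above it in CTRL, which is 86.6% and 79.5% of their summed RPKM. Among 3454 pairs of compared unigenes that share a B. rapa match, the median difference of log2 ratios was 0.24, and 10.5% of pairs differed by more than the P5CS1 pair, whose log2 ratios lay 0.74 apart. Whether the pair stands for homeologous genes or for parts of 1 gene was not tested, and reads of near-identical copies can be split between unigenes by the mapping.

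P5CS2 was the only P5CS unigene at a lower level in SS than in CTRL. Bju_CS52_R_686, a short unigene of 311 bp matching Bra007179, had 194 reads (6.95 RPKM) in SS, against 258 reads (8.75 RPKM) in CTRL. Its ratio was 0.794 (0.656 to 0.961), with a log2 ratio of -0.33. The 500 unigenes nearest to it by number, which are of similar length, had a median log2 ratio of -0.27, so relative to these it lay at -0.05. The value of P5CS2 is thus close to that of other short unigenes.

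The second enzyme of the glutamate route was also at a higher level in SS. The P5CR unigene Bju_CS52_R_18625 (1025 bp, Bra008735) had 4239 reads (46.1 RPKM) in SS, against 3435 reads (35.4 RPKM) in CTRL, a ratio of 1.30 (1.25 to 1.36). It was the member with the second highest level in both libraries. Its log2 ratio of 0.38 was exceeded by 11.2% of all unigenes compared.

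The ornithine route gave a similar value. The OAT unigene Bju_CS52_R_25344 (1661 bp, Bra025033) had 1455 reads (9.76 RPKM) in SS, against 1097 reads (6.97 RPKM) in CTRL, a ratio of 1.40 (1.29 to 1.52). This was the second largest ratio among the members. A non-rapa unigene annotated as ornithine aminotransferase without the word delta, Bju_CS52_NR_8529 (471 bp), lies outside the words and was chosen after its values were seen. It had 658 reads (15.6 RPKM) in SS, against 552 reads (12.4 RPKM) in CTRL, a ratio of 1.26 (1.12 to 1.41), so both OAT unigenes were above 1 and their intervals overlapped.

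**Figure D1:**
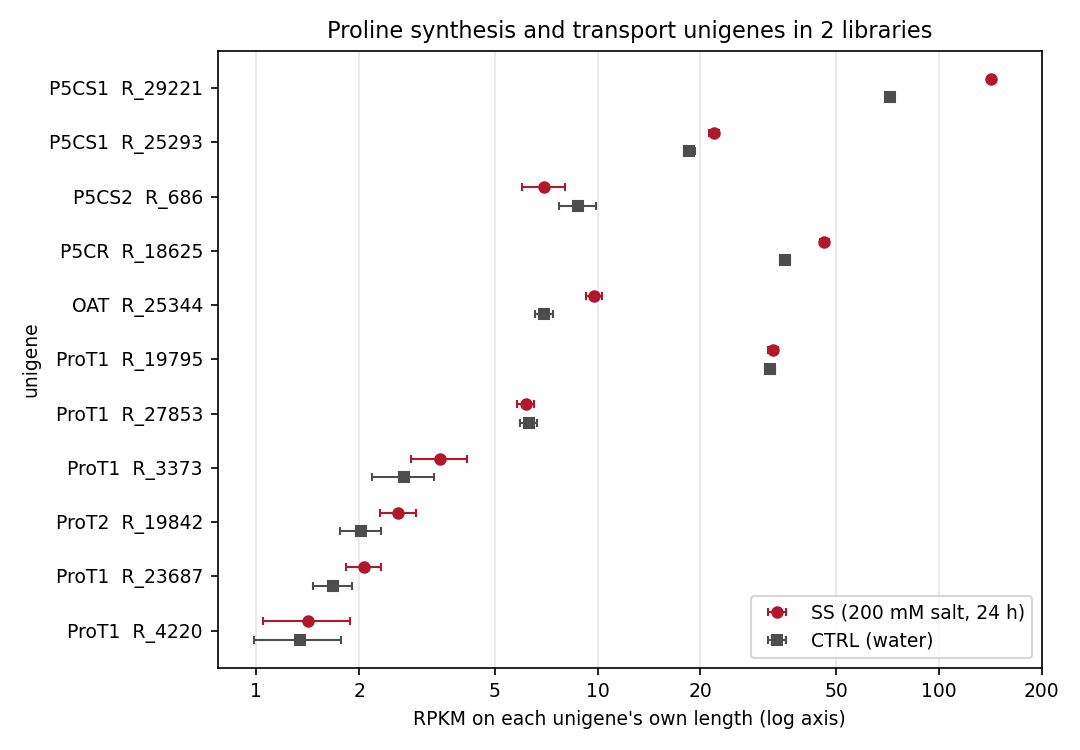
RPKM of the 11 members (log axis) in SS (circles) and CTRL (squares), with 95% Poisson intervals of the reads and 1 library per condition. The P5CS1 unigene Bju_CS52_R_29221 stands at 142.3 RPKM in SS and 71.9 RPKM in CTRL, while the values of the ProT unigene Bju_CS52_R_19795, 32.7 RPKM in SS and 32.0 RPKM in CTRL, nearly coincide.

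Proline transporter unigenes were spread over a wide range of levels and had ratios between 0.980 and 1.29. The highest, Bju_CS52_R_19795 (1112 bp, Bra000154, proline transporter 1), had 3266 reads (32.7 RPKM) in SS, against 3378 reads (32.0 RPKM) in CTRL. Its ratio of 1.02 had an interval from 0.973 to 1.07, which holds 1 and covers counting error only. A pair of unigenes matching Bra005005 carries the same name. The longer, Bju_CS52_R_27853 (2105 bp), had 1163 reads (6.16 RPKM) in SS, against 1253 reads (6.28 RPKM) in CTRL, a ratio of 0.980 (0.904 to 1.06). The shorter, Bju_CS52_R_3373 (359 bp), had 111 reads (3.45 RPKM) in SS, against 92 reads (2.70 RPKM) in CTRL, a ratio of 1.27 (0.958 to 1.70). Neither was distinguishable from 1 at this depth, and their ratios differed by a factor of 0.769 whose interval of 0.570 to 1.04 holds 1.

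The lower ProT unigenes had between 1.34 and 2.61 RPKM. Proline transporter 2, Bju_CS52_R_19842 (1115 bp, Bra014722), had 261 reads (2.61 RPKM) in SS, against 214 reads (2.02 RPKM) in CTRL, a ratio of 1.29 (1.07 to 1.55). Of the proline transporter 1 unigenes matching Bra017046, Bju_CS52_R_23687 (1462 bp) had 271 reads (2.07 RPKM) in SS, against 232 reads (1.67 RPKM) in CTRL, a ratio of 1.23 (1.03 to 1.48). The other, Bju_CS52_R_4220 (378 bp), had 48 reads in SS and 48 in CTRL, which is 1.41 and 1.34 RPKM, and its interval from 0.693 to 1.61 leaves the direction undetermined. Counting intervals of 2 of the 6 ProT unigenes lay wholly above 1 and 0 lay wholly below 1, against 20.7% and 31.8% of all unigenes compared, so such an interval is common at this depth.

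The order of the members by level was almost the same in SS and CTRL. In both libraries the order from the top was the P5CS1 unigene Bju_CS52_R_29221, P5CR, the ProT unigene Bju_CS52_R_19795 and the P5CS1 unigene Bju_CS52_R_25293, with no overlap of counting intervals between neighbours. The fifth place was held by OAT in SS and by P5CS2 in CTRL. Intervals of neighbours overlapped for P5CS2 and Bju_CS52_R_27853 in SS, for OAT and Bju_CS52_R_27853 in CTRL, and among the lowest 4 ProT unigenes in both libraries, so their order is not resolved.

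Breakdown enzymes were represented only by unigenes outside the words, chosen after their values were seen. The deposited table calls Bju_CS52_R_24806 (1594 bp, Bra020731) a methylenetetrahydrofolate reductase family protein, while the study's list of lowered transcripts gives its Arabidopsis match as a proline oxidase of the mitochondrial inner membrane. It had 136 reads (0.951 RPKM) in SS, against 687 reads (4.55 RPKM) in CTRL. The ratio was 0.209 (0.173 to 0.252) and the log2 ratio -2.14, and 99.1% of all unigenes compared had a higher one. With 1 RPKM added in place of 0.1 the log2 ratio was -1.51. The list was picked on these same libraries, and this unigene passed the filter of 1 RPKM through CTRL alone. Neither its direction nor its rank is therefore independent evidence. The next enzyme of breakdown, P5C dehydrogenase, is known in Arabidopsis as ALDH12A1. The unigene annotated as aldehyde dehydrogenase 12A1, Bju_CS52_R_27265 (1966 bp, Bra010097), had 4738 reads (26.9 RPKM) in SS, against 4313 reads (23.1 RPKM) in CTRL, a ratio of 1.16 (1.11 to 1.21). The unigenes of these successive breakdown steps thus had ratios on opposite sides of 1. The first of them was picked from a list of lowered transcripts.

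**Figure D2:**
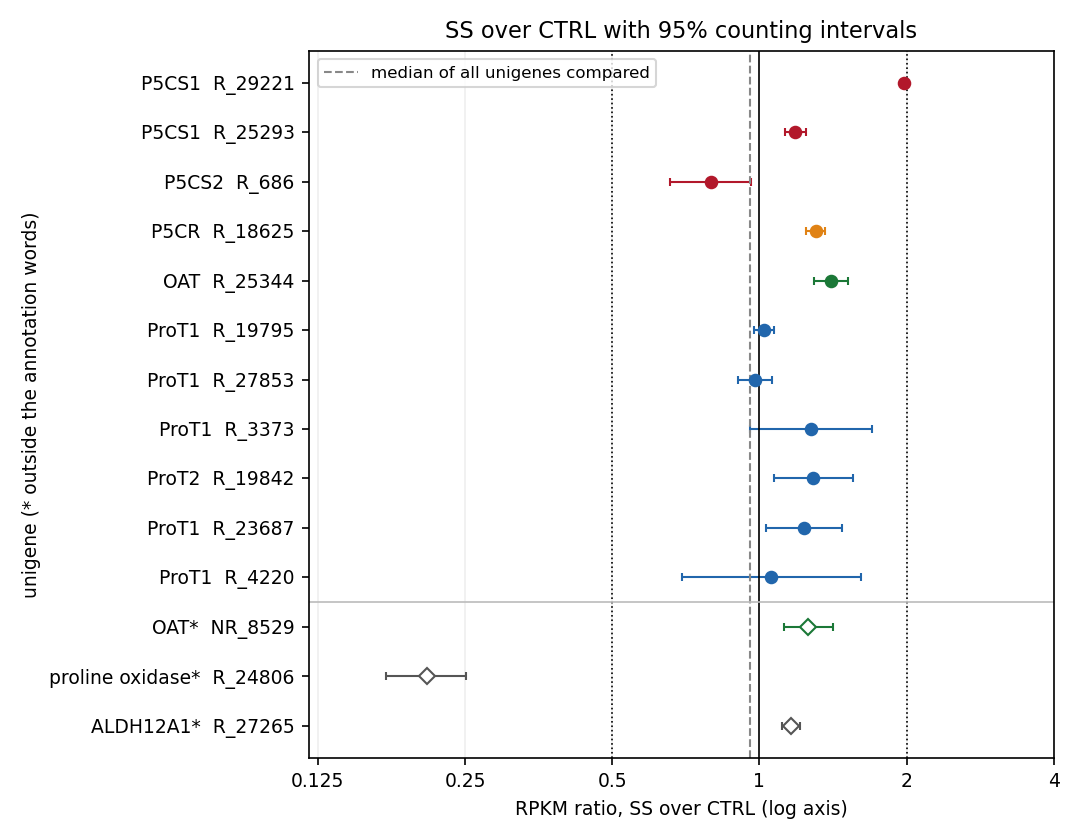
RPKM ratio of SS over CTRL (log axis) for the 11 members (circles) and, below the grey line, 3 unigenes outside the annotation words (diamonds), with 95% counting intervals; dotted lines mark 2-fold and the dashed line the median of all unigenes compared. P5CS1 (Bju_CS52_R_29221) lies at 1.98 and the unigene with a proline oxidase match at 0.209, with the other unigenes between 0.794 and 1.40.

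Members past a fold threshold were few, and with 11 members the counts cannot be set apart from the shares over all unigenes. Of the 11 members, all of which had at least 1 RPKM in both libraries, 0 were at least 2-fold higher in SS, against 1.91% of the 43250 unigenes compared, and 0 were at least 2-fold lower, against 4.21%. At 1.5-fold, 1 member was higher (Bju_CS52_R_29221), against 5.61% of all unigenes, and 0 were lower, against 12.3%. Bju_CS52_R_29221 sat just under 2-fold, at a log2 ratio of 0.98, and reached 1.05 when libraries were scaled by the median ratio of reads and 1.07 relative to its 500 neighbours by number. The log2 ratio was above 0 for 9 and below 0 for 2 of the 11 members, against 18409 above and 24841 below over all unigenes compared, and the ProT unigene Bju_CS52_R_27853 moved above 0 under both of these scalings (0.04 each). The members' median was 0.29, beside -0.06 over all. The paper, which called genes in these libraries at 2-fold or more, names P5CS among the up regulated ones. It also reports P5CS1 as up regulated by qPCR, in seedlings grown separately in vermiculite, with 2 biological replicates. Those qPCR values were not re-analysed here.

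Unigene length bears on how these ratios are read, since log2 ratios of short unigenes were lower and more spread. Among rapa unigenes above 300 and up to 400 bp the median was -0.25 and the central 95% ran from -1.64 to 0.98. Among those above 2500 bp the median was -0.13 and the central 95% ran from -0.65 to 0.35. Bju_CS52_R_29221, at 0.98 on 2622 bp, lay above that range, whereas P5CS2, Bju_CS52_R_3373 and Bju_CS52_R_4220, all under 400 bp, lay inside the range of short unigenes. OAT, at 0.48, lay below the upper limit of 0.55 for unigenes above 1500 and up to 2000 bp.

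**Figure D3:**
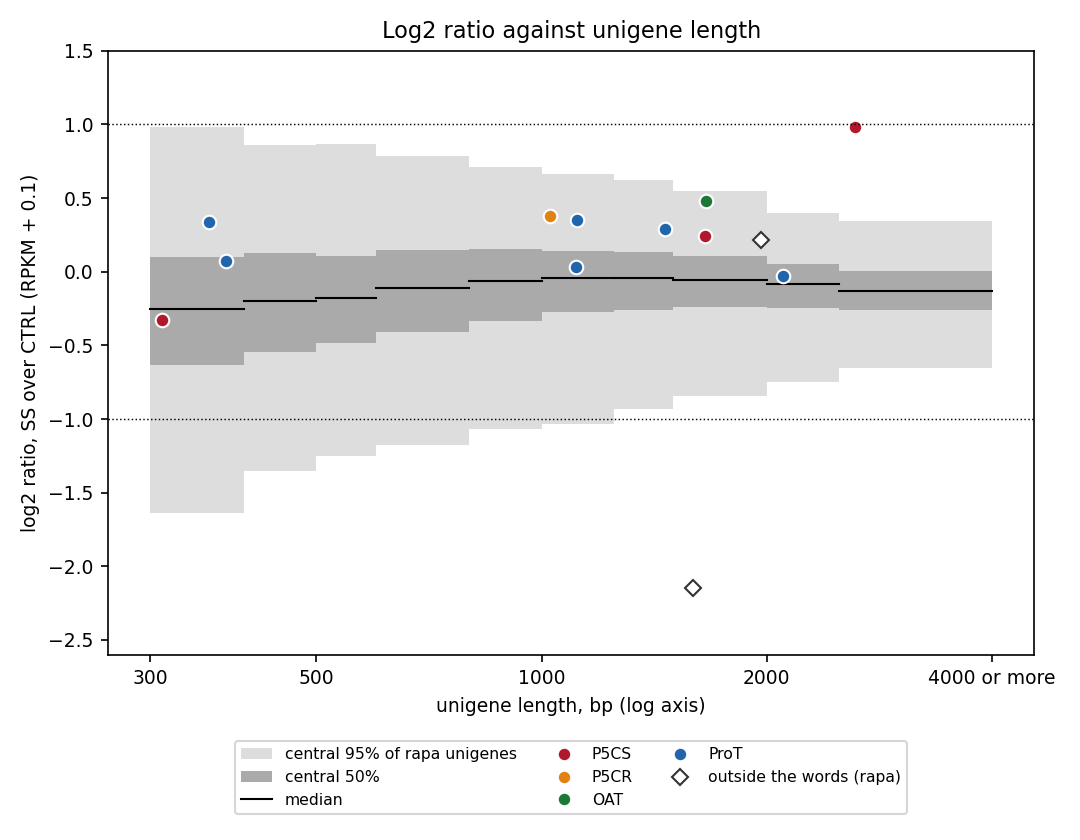
Log2 ratio of SS over CTRL against unigene length (log axis), with the central 95% (light grey), the interquartile range (dark grey) and the median (black) of rapa unigenes per length class, the longest class not drawn to its full extent; circles are members coloured by step, diamonds 2 rapa unigenes outside the words, and dotted lines 2-fold. The P5CS1 unigene of 2622 bp lies at 0.98, above the central 95% of its class, which ends at 0.35.

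Summed over the 11 members, the level was 275.5 RPKM in SS and 187.6 RPKM in CTRL, a ratio of 1.47. P5CS made up 62.2% of this sum in SS and 52.9% in CTRL, and ProT 17.6% and 24.6%. The 3 P5CS unigenes came to 171.3 RPKM in SS and 99.2 RPKM in CTRL, a ratio of 1.73, while the 6 ProT unigenes came to 48.4 RPKM in SS and 46.1 RPKM in CTRL, a ratio of 1.05. Of the summed difference of 87.9 RPKM, 80.1% came from Bju_CS52_R_29221, 12.2% from P5CR and 2.67% from all ProT unigenes together.

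**Figure D4:**
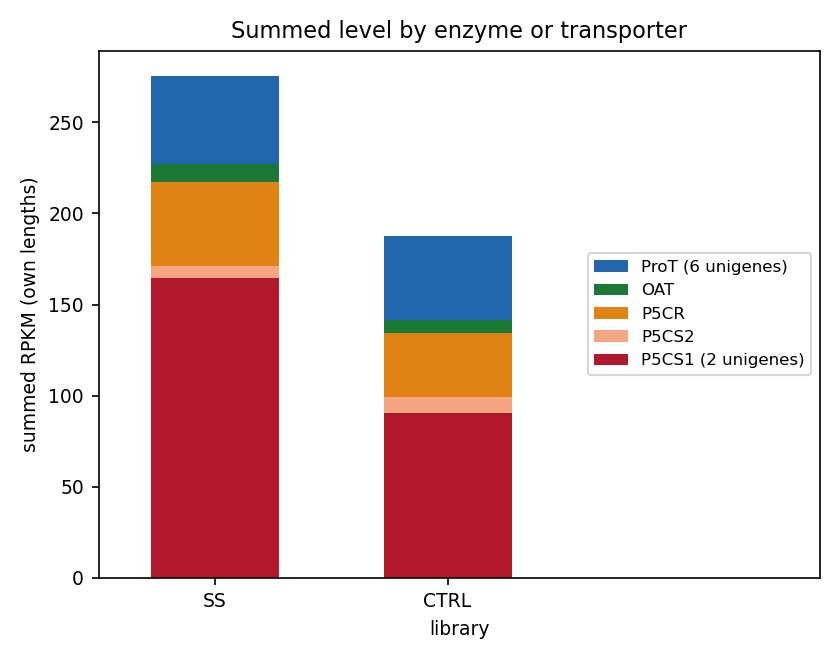
Summed RPKM of the members in SS and CTRL, split by enzyme or transporter, 1 library per condition and no error bars. The total is 275.5 RPKM in SS and 187.6 RPKM in CTRL, and the P5CS1 unigenes make up most of the difference.

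Other genes around the pathway gave mixed values. Words for the enzymes that supply glutamate (glutamine synthetase, glutamate synthase and glutamate dehydrogenase) matched 19 unigenes, with a median log2 ratio of -0.21. None passed 2-fold in either direction, beside 1.91% higher and 4.21% lower of all unigenes compared. At 1.5-fold, 0 were higher and 4 lower, beside 5.61% and 12.3%. Of these 19, 3 are N-acetyl-l-glutamate synthase 2, which uses glutamate to start ornithine and arginine synthesis, and their log2 ratios ran from -0.44 to -0.36. The other 16 had a median of -0.06, equal to that of all unigenes compared, with 6 above 0 and 10 below. Their summed level was higher in SS, 1822.5 RPKM, against 1679.9 RPKM in CTRL, a ratio of 1.08. Most of that sum is a glutamine synthetase 2 unigene (Bju_CS52_R_27167), with 1274 RPKM in SS and 1184 RPKM in CTRL, and a second one (Bju_CS52_R_24496) had 130.5 RPKM in SS and 89.1 RPKM in CTRL, a ratio of 1.46. Another glutamine synthetase unigene (Bju_CS52_R_22787) was lower in SS, with 15.9 RPKM, against 29.1 RPKM in CTRL, a ratio of 0.548. The median of the 16 thus lay at that of all unigenes compared, while the ratio of their sums was above 1. The list of ornithine and arginine enzymes held 10 unigenes, of which 8 are arginine decarboxylases, enzymes that lead from arginine to polyamines. Of these 10, 0 were 2-fold higher and 1 was 2-fold lower, beside 1.91% and 4.21% of all unigenes compared, with a median of -0.31. The lower one was an arginine decarboxylase 2 unigene, Bju_CS52_R_134 (303 bp), with 37 reads (1.36 RPKM) in SS and 86 reads (2.99 RPKM) in CTRL. Its log2 ratio of -1.08 lay inside the central 95% of short unigenes given above, and the count became 0 with 1 RPKM added, with a minimum of 5 RPKM or relative to the 500 neighbours. Arginase, which releases ornithine for OAT, had 7.97 RPKM in SS and 7.12 RPKM in CTRL (Bju_CS52_R_20433), a ratio of 1.12 (1.01 to 1.24). The 7 polyamine synthesis unigenes had a median of -0.04 and 0 past 2-fold in either direction, beside the same 1.91% and 4.21%.

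Genes that release or modify proline were few. Proline iminopeptidase, which frees proline from the end of peptides, had 10.9 RPKM in SS and 8.61 RPKM in CTRL (Bju_CS52_R_24425), a ratio of 1.27 (1.17 to 1.36). A prolyl 4-hydroxylase, which modifies proline in proteins, had 2.67 RPKM in SS and 2.02 RPKM in CTRL (Bju_CS52_NR_7433), with an interval of the ratio from 0.982 to 1.78. Neither reached 2-fold.

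Among the 55 other amino acid transporter unigenes that passed the same filter, 1 was 2-fold higher and 4 were 2-fold lower or more, beside 1.91% and 4.21% of all unigenes compared, and the median log2 ratio was -0.02. With 1 RPKM added these counts were 0 and 1, beside 0.932% and 1.49% of all unigenes. With a minimum of 5 RPKM they were 0 and 0, beside 1.29% and 2.18%. The higher one, Bju_CS52_R_13411 of the transmembrane amino acid transporter family, had 220 reads (3.48 RPKM) in SS and 92 reads (1.38 RPKM) in CTRL. The lowest ratios belonged to amino acid permease 7 (Bju_CS52_R_9347), with 16 reads (0.340 RPKM) in SS and 118 reads (2.38 RPKM) in CTRL, and to an amino acid permease family unigene (Bju_CS52_R_22223), with 45 reads (0.381 RPKM) in SS and 178 reads (1.43 RPKM) in CTRL. All of these are low, unlike the main ProT unigene. The 4 unigenes counted as lower were all below 1 RPKM in SS, so they passed the filter through CTRL alone.

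Unigenes with organ words in their annotation were compared because seedling tissue was pooled. Words for light-harvesting and chlorophyll a/b proteins matched 15 unigenes of green tissue, none at 0, with 1.64 to 3891 RPKM in SS and 2.55 to 4036 RPKM in CTRL, and a summed level of 20939 RPKM in SS and 23955 RPKM in CTRL. Of these, 0 were 2-fold higher and 2 were 2-fold lower in SS, beside 1.91% and 4.21% of all unigenes compared. Words for root hair, root cap, nitrate transporter 2 and COBRA-like proteins matched 28 unigenes, none at 0, with 0.0367 to 36.6 RPKM in SS and 0.317 to 42.9 RPKM in CTRL, and a summed level of 160.3 RPKM in SS and 183.0 RPKM in CTRL. Of the 21 that passed the filter, 0 were 2-fold higher and 1 was 2-fold lower in SS. The lower one had 0.524 RPKM in SS and passed the filter through CTRL alone. These words go by gene name, and whether each unigene marks root tissue was not tested. Both sums were lower in SS by a similar factor (0.874 and 0.876), whereas the members' sum was higher, and their part in the members' ratios was not tested.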

How the data were processed

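RNA-seq was made from 1 SS and 1 CTRL library. Reads were split by Tophat alignment to the B. rapa genome, and the authors assembled both parts with Trinity, clustered contigs with CD-HIT-EST, mapped high-quality reads with BOWTIE2 and named DESeq for normalization. Versions of Trinity, Tophat, BOWTIE2 and DESeq and the mapping of multiple hits were not given in the sources used here. The CTRL values were deposited as RPKM scaled by the length of each unigene. Although named RPKM, the SS values were deposited as a signal proportional to reads: 100% of 47505 values lie within 0.01 read of a whole number of reads, on a common length of 849 bp. A further 0 columns hold values per sample.

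Whole lengths between 301 and 9029 bp were found for which CTRL reads are whole and lengths never fall as numbers increase in either series of unigenes, rapa or non-rapa. They fitted 47392 unigenes with 0 violations, 47390 of them (the 11 members included) by a single length. SS was converted to RPKM with these lengths and the high-quality read total that the study gives. Unigenes below 1 RPKM in both libraries were left out of comparisons, and the pseudocount was 0.1 RPKM. Recovery and ratios were tested on simulated data. A count test on the reads was not made, since 1 library per condition leaves no residual degrees of freedom.

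Intervals (95%) are exact: Poisson for reads, Clopper-Pearson from the reads for RPKM ratios, and conditional exact for ratios of ratios (Python 3.11.15, NumPy 2.4.6, pandas 2.3.3, SciPy 1.17.1; figures with matplotlib 3.10.9); PCR duplicates are not covered. Named unigenes are all members and, of the pathway lists, unigenes past 2-fold, or where more than 4, the 2 with the highest and the 2 with the lowest ratios past it. Other list unigenes (arginase, the glutamine synthetases, both proline-releasing or -modifying enzymes, and those of the closing section) were chosen after their values were seen. Members and lists were chosen with earlier results of these data known. Lists were taken by annotation words, with members left out. Alternatives were other pseudocounts, filters, scalings, removal of a running median over 500 unigenes, and SS as deposited.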

Additional observations from a re-analysis of the deposited data

How the results depend on the processing

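No paired analysis was possible because each condition has 1 library. With pseudocounts of 0.01 or 1 RPKM, no filter or the total of reads on unigenes, all 11 members stayed within their counting intervals and on their side of 1; with at least 5 RPKM this held for the 7 members left. Scaling by the median ratio of reads (log2 shift 0.07) gave 1 member at least 2-fold higher (P5CS1, log2 ratio 1.05), 2 other amino acid transporters 2-fold higher, and ratios of summed RPKM of 1.54 for all members, 1.81 for P5CS and 1.10 for ProT. Removing the running median gave 1 member 2-fold higher and 0 of the ornithine and arginine list 2-fold lower. Of all unigenes, 2.23% were 2-fold higher and 3.56% lower with that scaling, and 2.28% and 3.25% with the running median removed. Under both, the ProT unigene Bju_CS52_R_27853 changed sign. A pseudocount of 1 gave 0 of the ornithine and arginine list lower, and 0 other transporters higher and 1 lower. With at least 5 RPKM these counts were 0, 0 and 0. Of all unigenes, 0.932% were then 2-fold higher and 1.49% lower at a pseudocount of 1, and 1.29% higher and 2.18% lower at 5 RPKM.

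The unit of SS mattered most. As deposited, SS values gave 5 members 2-fold higher and 1 lower, against 16.6% and 21.6% of all unigenes. Medians of the log2 ratio became 0.73 for all members, 1.20 for P5CS and 0.57 for ProT, and ratios of sums 3.34, 4.89 and 1.46. The ratio then follows length (Spearman 0.90 across unigenes, which are not replicates, against 0.05 with own lengths), by construction of that column. Counts 2-fold higher became 4 (glutamate supply, with 2 lower), 2 (ornithine and arginine), 16 (other transporters, with 15 lower), 1 (release or modification of proline) and 2 (polyamine synthesis). Leaving N-acetyl-l-glutamate synthase out of the glutamate list, chosen after seeing the data, kept its counts at 0 and 0. Depth limits the short ProT and P5CS2 unigenes, with 48 to 258 reads a library.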

Other observations

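Unigenes that share a B. rapa match had unlike ratios among other amino acid transporters. Of 6 unigenes annotated as amino acid permease 1 on Bra035446, chosen after their values were seen, 2 had log2 ratios above 0 and 4 below. Of those below, Bju_CS52_R_12907, Bju_CS52_R_16054 and Bju_CS52_R_5030 were under 1 RPKM in SS and passed the filter through CTRL alone. The highest ratio was that of Bju_CS52_R_23574 (1449 bp), with 1226 reads (9.43 RPKM) in SS and 670 reads (4.88 RPKM) in CTRL, a ratio of 1.93 (1.76 to 2.13). The lowest was that of Bju_CS52_R_12907 (677 bp), with 57 reads (0.938 RPKM) in SS and 149 reads (2.32 RPKM) in CTRL, a ratio of 0.404 (0.292 to 0.552). The other 4 had ratios of 0.665 (Bju_CS52_R_16054, 0.489 to 0.899), 0.778 (Bju_CS52_R_5030, 0.460 to 1.30), 0.987 (Bju_CS52_R_25324, 0.923 to 1.06) and 1.21 (Bju_CS52_R_28466, 1.17 to 1.25). The intervals of Bju_CS52_R_5030 and Bju_CS52_R_25324 hold 1, so their direction is undetermined. Bju_CS52_R_28466 is the most abundant, with 38.2 RPKM in SS and 31.6 RPKM in CTRL. Summed over the 6, the level was 61.6 RPKM in SS and 52.8 RPKM in CTRL. Both transmembrane amino acid transporter unigenes on Bra011000 were higher in SS, Bju_CS52_R_13411 with a ratio of 2.53 (1.97 to 3.26) and Bju_CS52_R_18130 with 1.75 (1.41 to 2.17).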
